A study of Mus musculus with 9 samples.

Results

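The genes described are 32 genes of myelin, of oligodendrocytes and of the precursors that give rise to them, taken by symbol from a table of 34714 gene symbols counted in mouse cortex. All 32 were in the table, and all 32 passed the filter on low counts that kept 18644 genes for testing. They were sorted by role into 19 genes of mature oligodendrocytes, 3 transcription factors of the whole lineage, 3 genes of newly forming oligodendrocytes and 7 genes of precursors. RNA was sequenced from 9 cortex samples in 3 groups of 3, each title naming a brain by number. One group was naive. Another had experimental autoimmune encephalomyelitis (EAE), in which an immune attack raised against myelin inflames brain and spinal cord and which serves to model multiple sclerosis. The last had EAE and received the gold nanocluster Au18(L-NIBC)14, and is called treated EAE here. Both of the last groups carry the disease. The sources used here do not give the strain, age, sex, immunising antigen, stage of disease at sampling, dose or schedule of the nanocluster, or any vehicle given to the untreated mice. The labels do not say how the cortex was cut from the white matter and the striatum under it, or from which animals tissue was pooled, if it was. The p-values therefore measure the spread between these samples.

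Oligodendrocytes wrap the axons of the central nervous system in myelin, a stack of lipid-rich membrane held together by a few very abundant proteins. They arise from precursors that carry the platelet-derived growth factor receptor alpha and the NG2 proteoglycan, pass through a short-lived newly forming stage, and then switch on the myelin genes under transcription factors such as Sox10 and Myrf. Mature oligodendrocytes are dense in white matter and in deep cortical layers, whereas precursors are spread rather evenly through grey and white matter. The amount of white matter taken with a piece of cortex therefore bears on the first set of genes far more than on the second.

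The genes of mature oligodendrocytes varied from library to library far more than between the groups. Levels are given as CPM, a gene's count scaled to a common library total with TMM factors, and the 9 libraries held between 26972179 and 45243553 counts. The mean of log2 CPM over the 19 mature genes was 6.66, 6.47 and 7.05 in naive replicates 1, 2 and 3. It was 6.54, 6.30 and 6.64 in EAE replicates 1, 2 and 3, and 5.79, 6.38 and 7.32 in treated EAE replicates 1, 2 and 3. Treated EAE replicate 1 was the lowest and treated EAE replicate 3 the highest of the 9, a 2.88-fold difference within 1 group. The group means of 6.73 ± 0.29 in naive, 6.49 ± 0.18 in EAE and 6.50 ± 0.77 in treated EAE (SD, n = 3) lay closer together than the treated libraries did.

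The precursor genes did not follow. Their mean log2 CPM was 6.34 ± 0.08 in naive, 6.35 ± 0.18 in EAE and 6.36 ± 0.10 in treated EAE (SD, n = 3), and the highest of the 9 libraries was 1.25-fold above the lowest. Between treated EAE replicates 3 and 1, where the mature genes differed most, the ratio for the precursor genes was 1.02. Without the genes classed as shared with other cell types, Pdgfra, Cspg4 and Lhfpl3 spanned 1.39-fold in their mean, and their ratio was 0.929. Single precursor genes spanned 1.20-fold to 1.77-fold over the 9 libraries. The mean of the mature genes minus that of the precursor genes was 0.35, 0.04 and 0.77 in the naive libraries, 0.28, -0.26 and 0.41 in the EAE libraries and -0.62, 0.13 and 0.89 in the treated EAE libraries, on the log2 scale. The 3 groups overlapped in this difference.

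**Figure D1:**
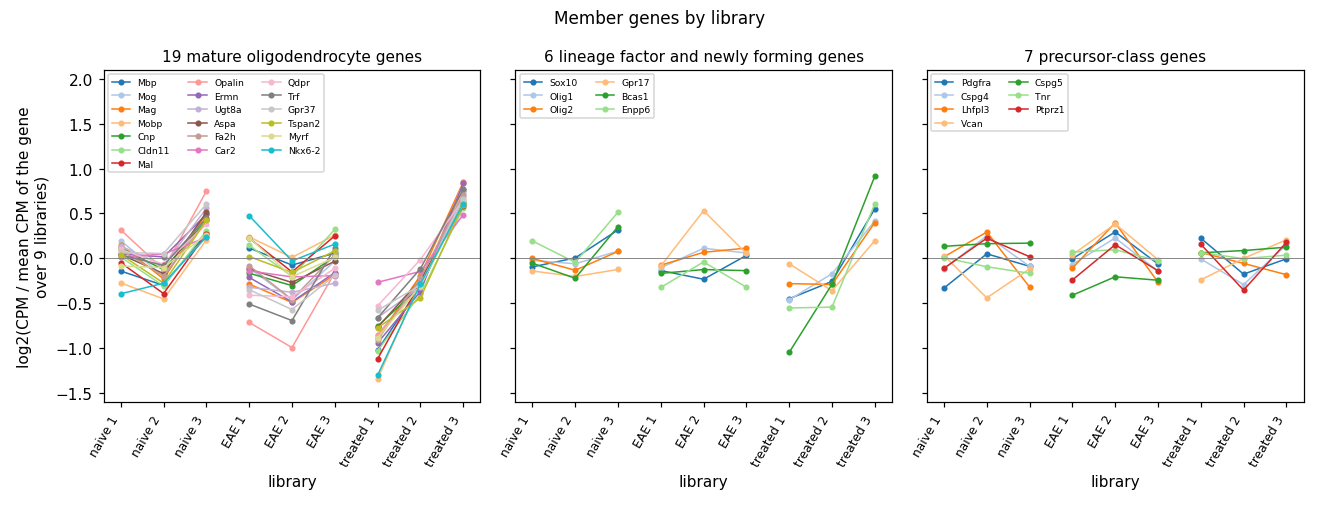
CPM of each of the 32 genes in the 9 libraries, as log2 of the CPM over the gene's own mean, with 19 mature genes, 6 lineage factor and newly forming genes and 7 precursor genes in 3 panels. Lines only join the 3 libraries of a group and stand for no order. The mature genes are spread most between treated EAE replicates 1 and 3, while the precursor genes stay nearer to 0.

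Gene by gene the same libraries were at the ends. Treated EAE replicate 3 was the highest library for 19 of the 19 mature genes. Treated EAE replicate 1 was the lowest for 17 of the 19, and EAE replicate 2 for the other 2, Opalin and Trf. The ratio of treated EAE replicate 3 to replicate 1 ran from 1.68 for Car2 to 4.26 for Mobp among the mature genes. It ran from 1.60 to 2.0 among the lineage factors and from 0.843 to 1.36 among the precursor genes. Neither of these 2 libraries was the highest or the lowest for any of the 7 precursor genes, where EAE replicate 2 was the highest for 4.

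Other gene lists describe the tissue in each library. A list of 41 further oligodendrocyte genes that shares no gene with the 32 gave mean log2 CPM of 5.18, 4.99 and 5.40 in naive, 5.03, 4.91 and 5.16 in EAE and 4.55, 4.96 and 5.67 in treated EAE replicates 1, 2 and 3, with the same libraries lowest and highest. It is called the white matter score in what follows, although fewer oligodendrocytes in a sample and less RNA per oligodendrocyte cannot be told apart in bulk tissue. A list of 22 further precursor genes spanned only 1.13-fold over the 9 libraries. The 10 striatal genes, which mark tissue from below the cortex and its white matter, ranged from 4.46 in EAE replicate 3 to 7.50 in naive replicate 1, and were equal in treated EAE replicates 1 and 3 at a ratio of 0.998. The 8 choroid plexus genes stood apart in EAE replicate 1 at 3.84, with -0.69 to 1.59 in the other libraries. The 8 microglial genes stood at 5.69 in EAE replicate 2, against 4.50 to 5.01 in the others. For 5 genes of the deepest cortex (layer 6b and subplate) the ratio of treated EAE replicate 3 to replicate 1 was 0.995. Their lowest mean was 2.46, in naive replicate 3, where the white matter score was 5.40. The 8 thalamic genes had means of 4.85 and 4.64 in treated EAE replicates 1 and 3. Means of 4 Schwann cell genes were lowest in treated EAE replicate 1 (3.70) and highest in treated EAE replicate 3 (4.38). The part of these lists in the results below was not tested, other than that of the white matter score.

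**Figure D2:**
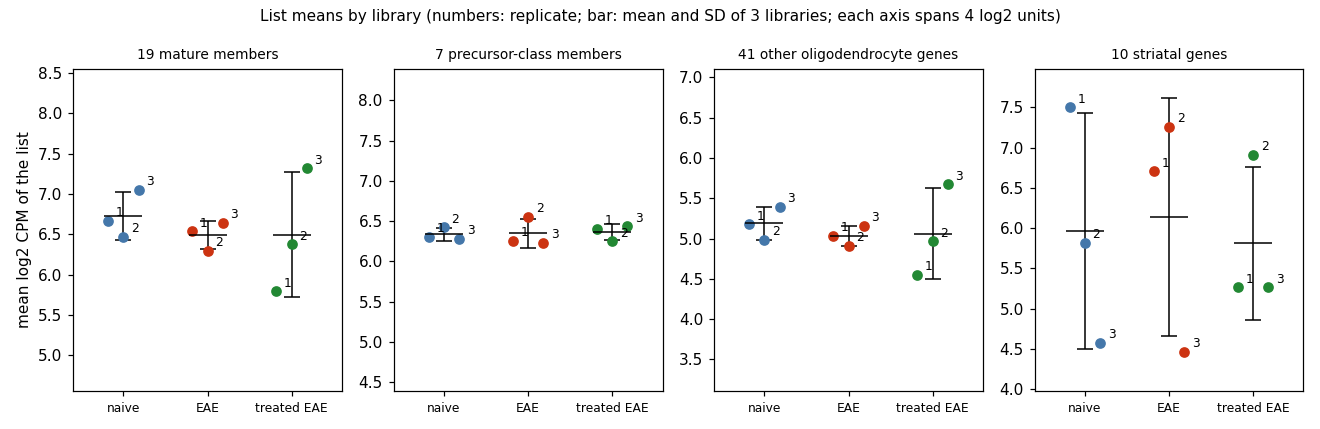
Mean log2 CPM per library for the 19 mature genes, the 7 precursor genes, 41 further oligodendrocyte genes and 10 striatal genes, with the group mean and SD of 3 libraries and the replicate number beside each point. Every axis spans 4 log2 units. The mature genes and the further oligodendrocyte genes place the libraries alike, with treated EAE replicates 1 and 3 at the ends, the precursor genes differ little, and the striatal genes are spread in another order.

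Levels can be compared between genes only after allowing for length. The length used here is that of all annotated exons of a gene merged, which can exceed that of its main transcript, so the order is approximate. Per kilobase of annotated exon, Mbp was the highest of the 32 at a mean of 313 CPM per kilobase over the 9 libraries, followed by Mobp at 140, Qdpr at 90.5 and Cnp at 83.0. The lineage factor Olig1 stood at 52.4 on this scale and Myrf at 7.16. Among the precursor genes it was 29.5 for Cspg5, 6.95 for Pdgfra and 1.85 for Vcan. The lowest of the 32 was Enpp6 at 1.37.

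The question of the first comparison was what the disease changed in the cortex. In EAE against naive, 1 of the 32 genes passed an adjusted p of 0.05, the precursor gene Cspg5, against 0.987% of all genes tested (0.252% for a fall, the direction of Cspg5), and none of the 19 mature genes did. Of those 19, 5 were above 0 and 14 below, with a median log2 fold change of -0.29 against -0.01 over all genes. At an unadjusted p under 0.05 there was also 1 of the 32 genes, against 16.4% of all genes. The groups did not overlap for 7 genes that were lower in EAE (Opalin, Ermn, Ugt8a, Car2, Qdpr, Gpr37 and Cspg5) and 1 that was higher (Gpr17), 8 of 32 against 24.0% of all genes in either direction. By direction, 7 of the 32 were lower against 11.8% of all genes, 6 of them among the 19 mature genes, and 1 was higher against 12.2%. The tests were imprecise for the mature genes in particular. The median width of their 95% intervals was 1.68 log2 units, against 0.66 for the precursor genes. The fit estimates the spread of each gene from all 3 groups together, so the treated libraries enter these widths too. The SD of the mean of the mature genes was 0.29 in naive, 0.18 in EAE and 0.77 in treated EAE. In a fit of naive and EAE alone, Cspg5 was again the only 1 of the 32 genes called.

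Cspg5 encodes neuroglycan C, a membrane-bound chondroitin sulfate proteoglycan that precursors share with neurons and astrocytes. It had 326, 333 and 334 CPM in the naive libraries, 224, 258 and 251 in the EAE libraries and 310, 316 and 324 in the treated EAE libraries. All 3 EAE libraries lay below all 6 others, and the 2 treated libraries at the ends of the mature genes differed little. The log2 fold change was -0.44 (SE 0.070, 95% interval -0.59 to -0.28, adjusted p = 0.0280, edgeR's quasi-likelihood test) in EAE against naive. The call was lost when naive replicate 1, 2 or 3, EAE replicate 2 or 3, or treated EAE replicate 2 was left out, with adjusted p of 0.0502 to 0.121 and log2 fold changes of -0.48 to -0.38. Beside it, the mean log2 CPM of 14 cortical neuron genes was 7.41 in naive and 7.21 in EAE, and that of 10 astrocyte genes was 7.60 and 7.82. The part of either cell type in the value of Cspg5 was not tested. The gene lies at chr9:110243783-110262576 (RefSeq, GRCm38.p6).

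The other precursor genes stayed within the spread of the libraries. Pdgfra, the growth factor receptor that defines precursors, had 55.4, 72.1 and 65.5 CPM in naive, 69.4, 85.4 and 66.7 in EAE and 81.3, 61.6 and 69.4 in treated EAE, with a log2 fold change of 0.20 (95% interval -0.11 to 0.51) in EAE against naive. Cspg4, which encodes NG2, was at -0.01 (95% interval -0.34 to 0.32), and Lhfpl3, which encodes a membrane protein enriched in precursors, at 0.02. Vcan, which encodes the matrix proteoglycan versican, was at 0.31 (95% interval -0.05 to 0.66), Tnr, which encodes tenascin-R, at 0.13, and Ptprz1, a receptor phosphatase that astrocytes also make, at -0.12. None of these 6 passed the test.

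Of 22 further precursor genes, 1 passed in EAE against naive, against 0.987% of all genes (0.252% for a fall), and the same gene was the 1 that passed in treated EAE against EAE, against 0.220%. Megf11, a membrane protein with EGF-like repeats, had 85.2, 77.1 and 80.2 CPM in naive, 62.4, 61.0 and 61.5 in EAE and 85.9, 80.5 and 80.7 in treated EAE. Its pattern over the libraries was that of Cspg5, with all EAE libraries below all others. Its log2 fold change was -0.39 (SE 0.061, adjusted p = 0.0280) in EAE against naive and 0.42 (adjusted p = 0.0456) in treated EAE against EAE. Leaving out any naive replicate, or EAE replicate 2 or 3, ended the first call, and leaving out any of the 9 libraries ended the second. Next by p in EAE against naive were Tmem176b at 0.49 (adjusted p = 0.0943) and Rlbp1 at -0.45 (adjusted p = 0.123), neither past the threshold. These lists were assembled with earlier results of these data known.

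None of the genes of myelin proteins passed in EAE against naive with group alone, and the intervals were wide. Mbp, myelin basic protein, which binds the inner faces of the membrane together, had 2401, 2150 and 3223 CPM in naive, 2868, 2515 and 2757 in EAE and 1304, 2139 and 4486 in treated EAE. The treated libraries enclosed all the others. The log2 fold change in EAE against naive was 0.07 (95% interval -0.82 to 0.96), an interval that holds both a fall and a rise of well over 1.5-fold. The other structural genes spanned -0.94 for Opalin to 0.32 for Mobp. Mog, the glycoprotein of the outermost myelin surface, was at -0.36, Mag, the adhesion protein facing the axon, at -0.48, Cnp, an enzyme of the cytoplasmic channels of myelin, at -0.30, and Ermn, an actin-binding protein, at -0.48.

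Opalin, a membrane glycoprotein found in oligodendrocytes, had the lowest of these values. It had 26.0, 19.1 and 35.0 CPM in naive, 12.7, 10.5 and 18.7 in EAE and 11.6, 16.8 and 37.4 in treated EAE. The EAE libraries lay below the naive ones, by a narrow margin between EAE replicate 3 and naive replicate 2, and the treated libraries overlapped both. The log2 fold change of -0.94 (SE 0.440, 95% interval -1.95 to 0.07, adjusted p = 0.342) did not pass.

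The 6 genes of myelin lipids and oligodendrocyte metabolism were all below 0 in EAE against naive, between -0.55 and -0.28, and none passed. Trf, transferrin, the iron carrier that oligodendrocytes make in the brain, had 251, 231 and 334 CPM in naive, 172, 151 and 265 in EAE and 154, 226 and 417 in treated EAE. Qdpr, dihydropteridine reductase, had 173, 154 and 210 CPM in naive, 122, 120 and 150 in EAE and 112, 160 and 254 in treated EAE, with a log2 fold change of -0.46 (SE 0.266, adjusted p = 0.447). Naive and EAE did not overlap for Qdpr, and did for Trf. The others were Ugt8a, which makes galactocerebroside, at -0.55, Aspa, which releases acetate from N-acetylaspartate, at -0.29, and Fa2h, which hydroxylates the fatty acids of myelin lipids, at -0.28. Car2, a carbonic anhydrase, was also at -0.28 and varied least between libraries among the mature genes.

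The receptor Gpr37 had 61.2, 60.7 and 88.8 CPM in naive, 45.9, 39.4 and 51.2 in EAE and 39.1, 47.6 and 92.4 in treated EAE, and the tetraspanin Tspan2 117, 94.1 and 153, then 116, 102 and 121, then 66.6, 83.8 and 173. Their log2 fold changes in EAE against naive were -0.63 (SE 0.312, adjusted p = 0.371) and -0.11 (adjusted p = 0.920). Myrf, the transcription factor that drives the myelin genes, had 57.8, 57.1 and 73.7 CPM in naive, 72.0, 53.2 and 61.7 in EAE and 33.2, 49.5 and 93.8 in treated EAE. Nkx6-2, a homeobox factor of mature oligodendrocytes, had 8.38, 9.09 and 13.0, then 15.3, 10.8 and 12.3, then 4.47, 9.04 and 16.8. Neither factor passed, at -0.01 and 0.34, and for both the treated libraries reached below and above all others.

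The lineage factors, which precursors and oligodendrocytes share, lay between the mature and the precursor genes in their spread. Olig1 had 112, 109 and 120 CPM in naive, 105, 123 and 118 in EAE and 82.3, 101 and 151 in treated EAE. Sox10 had 40.5, 43.3 and 53.8, then 39.3, 36.8 and 44.2, then 31.6, 36.2 and 63.3. Their log2 fold changes in EAE against naive were 0.02 and -0.19, that of Olig2 was 0.05, and none of the 3 passed.

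The 3 genes of newly forming oligodendrocytes did not move alike. Bcas1, which marks early myelinating cells, had 168, 150 and 223 CPM in naive, 155, 160 and 159 in EAE and 84.4, 143 and 329 in treated EAE, a spread between libraries like that of the mature genes. Gpr17, a receptor of committed precursors, had 62.1, 59.5 and 62.8, then 64.5, 98.9 and 71.1, then 65.6, 53.3 and 78.4, with every EAE library above every naive one. Its log2 fold change of 0.35 (SE 0.172, 95% interval -0.04 to 0.74, adjusted p = 0.363) did not pass, and EAE replicate 2, the library highest for microglial genes, held its highest value. Enpp6, a choline phosphodiesterase of newly forming cells, was at -0.46 (95% interval -1.15 to 0.23). A list of 14 further newly forming genes had 12 above 0 and a median of 0.24 in EAE against naive, against 9141 of 18644 and -0.01 over all genes. In treated EAE against EAE 12 were below 0 with a median of -0.25, against 9219 of 18644 and 0.00. The EAE libraries are common to both. Of the 14, 0 passed the threshold in either, against 0.987% and 0.220% of all genes. The groups did not overlap for 6 in the first, all with EAE higher, against 12.2% of all genes, and for 0 in the second, against 19.2% in either direction. Tns3 (0.49, adjusted p = 0.153), Mycl (0.51, adjusted p = 0.244) and Samd4b (0.22, adjusted p = 0.271) had the smallest p in the first comparison.

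The second comparison asked what the nanocluster changed in diseased cortex. In treated EAE against EAE, none of the 32 genes passed edgeR's test, against 0.220% of all genes, and 1 had an unadjusted p under 0.05, against 15.1% of all genes. That gene was Cspg5, with a log2 fold change of 0.38 (SE 0.069, 95% interval 0.22 to 0.53, adjusted p = 0.0764). DESeq2 called it as the only gene of the 32 (adjusted p = 0.000132). It was also the only one of the 32 for which these groups did not overlap, against 19.2% of all genes in either direction and 9.93% with the treated libraries higher. The fall in EAE against naive and this value use the same 3 EAE libraries and are not independent. Among the mature genes 12 were above 0 and 7 below, with a median of 0.16 against 0.00 over all genes, and the interval of Mbp ran from -0.93 to 0.85.

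In treated EAE against naive, none of the 32 genes passed, and none of the 18644 genes did in edgeR, against 3 in DESeq2, with 318 genes (1.71%) and none of the 32 at an unadjusted p under 0.05. Cspg5 was at -0.06 (95% interval -0.22 to 0.09) and was the only gene of the 32 whose groups did not overlap here, with the treated libraries lower, against 6.25% of all genes in either direction and 2.74% in that one. The mature genes had a median of -0.12 against 0.01 over all genes. Their intervals had a median width of 1.67, so that a change of moderate size would not have been detectable with these libraries.

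**Figure D3:**
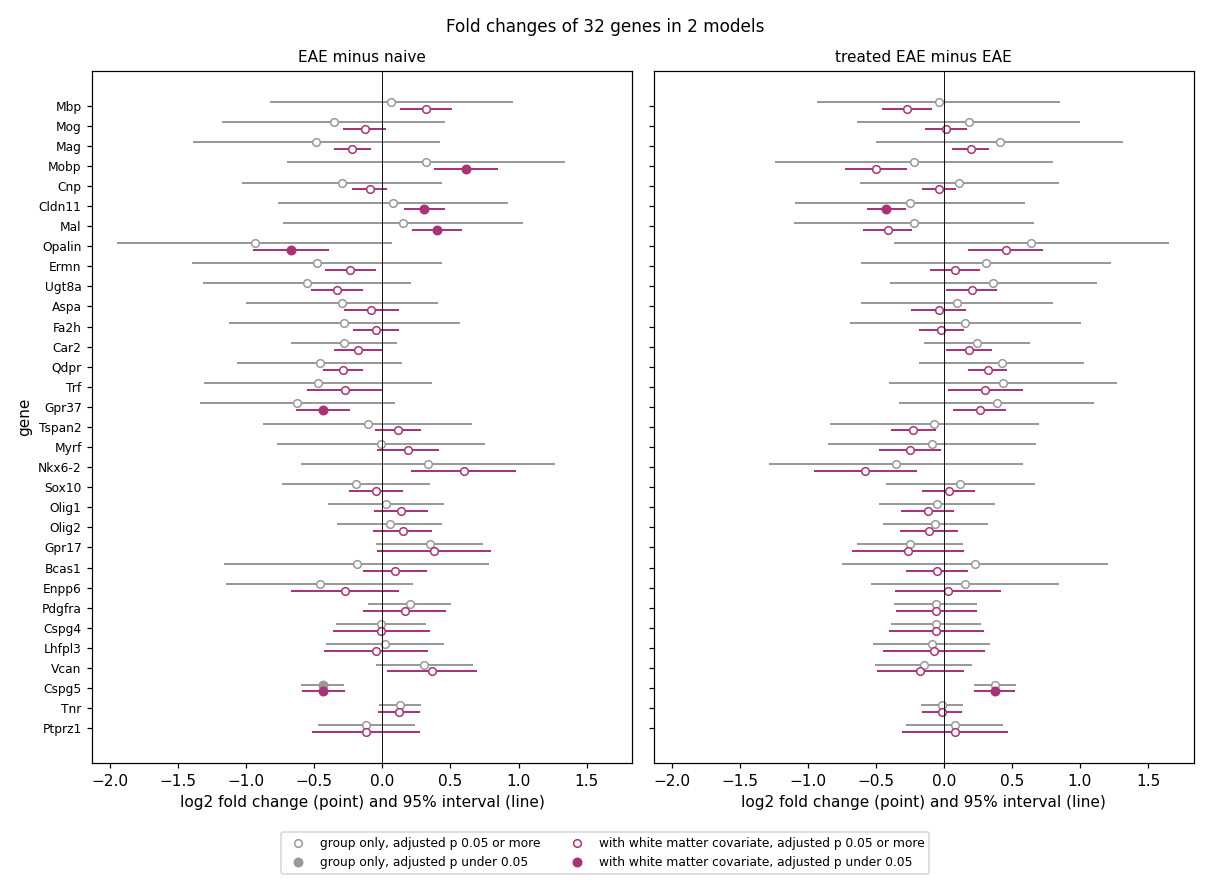
Log2 fold change and 95% interval of each of the 32 genes in EAE against naive and in treated EAE against EAE, from the model with group alone (grey) and from the model that also holds the white matter score (magenta), with filled points for an adjusted p under 0.05. The intervals of the mature genes, in the upper rows, narrow with the score, and those of the precursor genes, in the bottom rows, do not.

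How the genes stood relative to the oligodendrocyte content of each library was examined with a model that held the white matter score beside the group. The score is computed from the same libraries, and it could itself move with the disease. A value from this model therefore says how a gene stood relative to the 41 other oligodendrocyte genes, not how much of it the cortex held. The median standard error of the mature genes fell from 0.364 to 0.082 and the median width of their intervals from 1.68 to 0.37, while that of the precursor genes stayed at 0.66. Each gene has a single slope on the score, fitted in common to the 3 groups. The SD of the score was 0.20 in naive, 0.12 in EAE and 0.57 in treated EAE (n = 3). The treated libraries therefore weigh most in the slopes, also where EAE is compared with naive. Slopes were not fitted for each group. On the common slope, log2 CPM rose by 1.76 per unit of the score for Mobp, 1.66 for Opalin, 1.64 for Bcas1 and 1.52 for Mbp. It rose by 0.64 for Car2, 0.61 for Olig2 and 0.19 for Gpr17, and the precursor genes lay between -0.46 and 0.35.

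With the score in the model, 6 of the 32 genes passed in EAE against naive, against 2.48% of all genes, 3 higher (1.66% of all genes) and 3 lower (0.815%). The higher ones were the structural myelin genes Mobp, Cldn11 and Mal, and the lower ones were Opalin, Gpr37 and again Cspg5. The score itself averaged 5.19 in naive and 5.03 in EAE, a difference that enters each value from this model through the gene's slope. At an unadjusted p under 0.05 there were 14 of the 32 genes and 12 of the 19 mature genes, against 19.8% of all genes. The median standard error in this model was 0.082 for the mature genes and 0.136 over all genes, where it was 0.150 without the score. A departure of a given size was therefore called more readily in the mature genes, and these shares do not compare like with like. The median of the mature genes was -0.09 against -0.01 over all genes, with 7 of the 19 above 0. The score centres genes that vary with it, so this median says nothing about a shift of the mature genes as a whole. These calls were fragile to the loss of a library, since leaving out any 1 of the 9 left between 0 and 3 of the 32 genes past the threshold, and 0 without naive replicate 1, 2 or 3. The direction of all 6 was the same in all 15 alternatives to this model.

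Mobp encodes myelin-associated oligodendrocyte basic protein, a small protein of compact myelin. It had 791, 699 and 1101 CPM in naive, 1128, 963 and 1144 in EAE and 376, 802 and 1602 in treated EAE. As counted, the groups overlapped. Adjusted to the mean score, it stood at 757 ± 40.0 CPM in naive, 1160 ± 85.7 in EAE and 821 ± 106 in treated EAE (SD, n = 3). The log2 fold change with the score was 0.61 (SE 0.10, adjusted p = 0.0232) in EAE against naive, and 0.57 to 0.68 over the alternatives, 11 of 15 of them past the threshold. The call was lost without naive replicate 1, 2 or 3 or EAE replicate 2. The exons of Mobp, at chr9:120149742-120181488 on GRCm38.p6, overlap those of Gm38642 on the same strand, so that its reads and those of that gene cannot be told apart.

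Cldn11 encodes the claudin that seals the layers of the sheath. It had 117, 94.0 and 144 CPM in naive, 129, 101 and 145 in EAE and 57.1, 88.1 and 172 in treated EAE, and 106 ± 1.84, 132 ± 8.52 and 98.4 ± 2.12 CPM (SD, n = 3) at the mean score. The EAE libraries overlapped the naive ones as counted and lay above both other groups after adjustment. The gene was picked by its call with the score, so this separation from naive is no further support. The log2 fold change in EAE against naive was 0.08 with group alone (adjusted p = 0.949) and 0.31 with the score (SE 0.066, adjusted p = 0.0466). The value with the score was past the threshold in 5 of 15 alternatives. Of the 9 libraries, leaving out EAE replicate 2 alone kept the call. It lies at chr3:31149920-31164326.

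Mal encodes a small membrane protein of myelin that sorts raft lipids. It had 204, 161 and 255 CPM in naive, 247, 190 and 251 in EAE and 97.2, 175 and 321 in treated EAE, and 184 ± 3.85, 243 ± 17.2 and 183 ± 15.6 CPM (SD, n = 3) at the mean score. The log2 fold change in EAE against naive was 0.15 with group alone (adjusted p = 0.896) and 0.40 with the score (SE 0.082, adjusted p = 0.0429). The value with the score was past the threshold in 6 of 15 alternatives. Leaving out treated EAE replicate 2 or 3 kept the call, and leaving out any other library ended it. It lies at chr2:127633226-127656695. Mbp was on the same side at 0.32 (SE 0.085, adjusted p = 0.0758) without passing, with 2316 ± 103, 2898 ± 272 and 2403 ± 73.4 CPM (SD, n = 3) at the mean score.

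Opalin at the mean score stood at 23.4 ± 1.58 CPM in naive, 14.7 ± 2.40 in EAE and 20.2 ± 1.35 in treated EAE (SD, n = 3). Its log2 fold change with the score was -0.67 (SE 0.12, adjusted p = 0.0317) in EAE against naive, -0.82 to -0.60 over the alternatives, and past the threshold in 6 of 15. Gpr37 stood at 64.3 ± 6.30, 47.6 ± 1.55 and 57.3 ± 4.09 CPM (SD, n = 3), with -0.43 (SE 0.088, adjusted p = 0.0421), past the threshold in 5 of 15. The call of Opalin was kept only without EAE replicate 3, and that of Gpr37 was lost whichever library was left out. Opalin lies at chr19:41061959-41077113 and Gpr37 at chr6:25668523-25689980. Cspg5, which varied little with the score, was at -0.43 (SE 0.069, adjusted p = 0.0225) and lost its call without naive replicate 1, 2 or 3 or EAE replicate 3. Near the threshold on the lower side were Qdpr at -0.29 (adjusted p = 0.0543), Ugt8a at -0.33 (adjusted p = 0.0693) and Mag at -0.22 (adjusted p = 0.0892), and on the higher side Nkx6-2 at 0.60 (adjusted p = 0.0989).

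**Figure D4:**
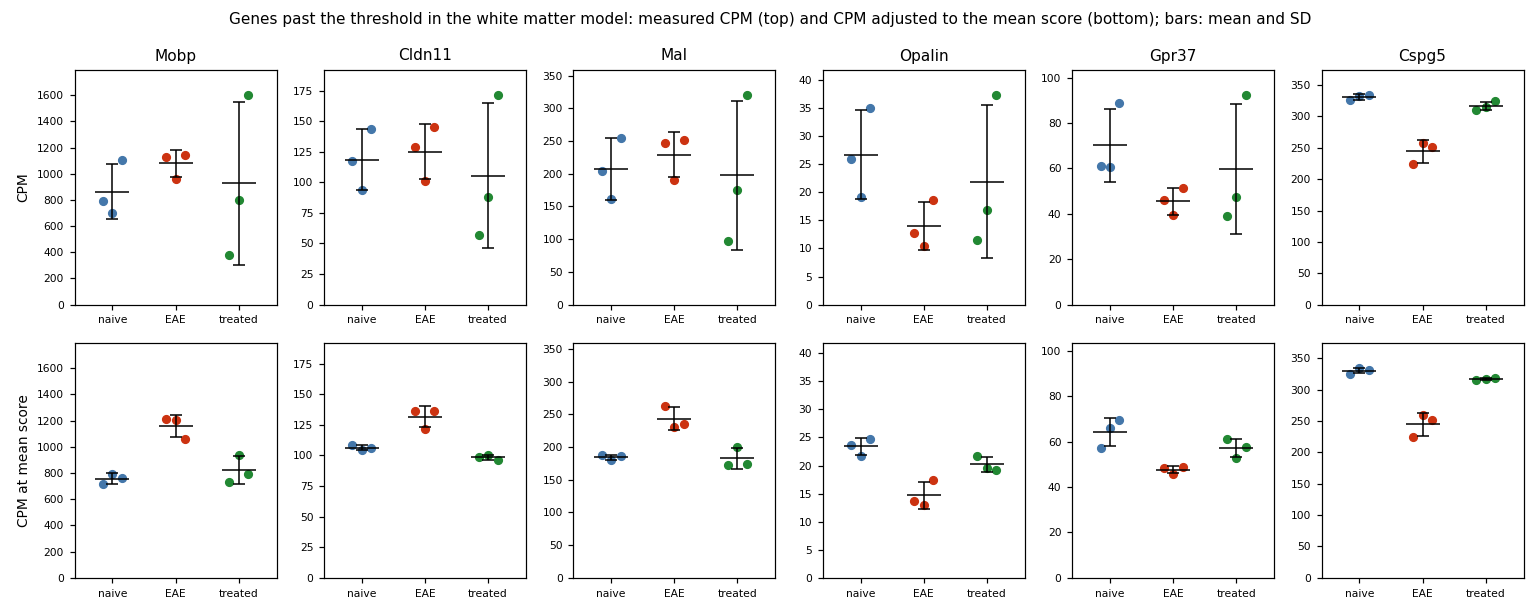
CPM of the 6 genes that passed with the white matter score in the model, as counted (top row) and adjusted to the mean score (bottom row), in the 3 libraries of each group with the mean and SD, on axes that start at 0. As counted, the treated EAE libraries of 5 of the genes are spread widely, and after adjustment the EAE libraries of Mobp, Cldn11 and Mal lie above both other groups and those of Opalin, Gpr37 and Cspg5 below them. The genes were picked by their call in EAE against naive with the same score. Separation of EAE from naive after adjustment therefore follows in part from that choice.

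In treated EAE against EAE with the score, 2 of the 32 genes passed, against 0.944% of all genes. Cldn11 was lower in treated EAE at -0.42 (SE 0.065, adjusted p = 0.0291), as were 0.531% of all genes, and Cspg5 higher at 0.37 (SE 0.068, adjusted p = 0.0452), as were 0.413%. Leaving out 1 library left 0 or 1 of the 32 genes past the threshold: Cldn11 kept its call only without naive replicate 1 or EAE replicate 2, and Cspg5 lost its call whichever library was left out. Mal was at -0.41 (adjusted p = 0.0528), Mobp at -0.50 (adjusted p = 0.0567), Qdpr at 0.32 (adjusted p = 0.0555) and Opalin at 0.45 (adjusted p = 0.100). With the replicate number as a block beside the score, Mobp passed at -0.51 (adjusted p = 0.0404). These values share the EAE libraries with those against naive, so opposite signs in the 2 comparisons are not independent of each other. In treated EAE against naive with the score, none of the 32 genes and none of all genes passed in edgeR, with 513 genes (2.75%) and none of the 32 at an unadjusted p under 0.05.

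The promoters of the genes with the largest change in each direction with the score, Mobp and Opalin, are shown because these genes stood farthest from naive in EAE relative to the score among those that passed. RefSeq's promoter table for GRCm38.p6 held 22 of the 32 genes, in 25 windows. The 250 bases before the start site are given in the direction of transcription, chr9:120149492-120149741 on the plus strand for Mobp and chr19:41077114-41077363 on the minus strand for Opalin. Capitals mark ACAAAG or its reverse complement CTTTGT, a core to which Sox factors such as Sox10 are known to bind.
Mobp: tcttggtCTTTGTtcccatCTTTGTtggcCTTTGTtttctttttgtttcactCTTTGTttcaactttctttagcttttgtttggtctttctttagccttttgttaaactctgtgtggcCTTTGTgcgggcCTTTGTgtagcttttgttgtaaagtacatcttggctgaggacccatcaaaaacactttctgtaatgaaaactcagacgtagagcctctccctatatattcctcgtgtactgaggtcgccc
Opalin: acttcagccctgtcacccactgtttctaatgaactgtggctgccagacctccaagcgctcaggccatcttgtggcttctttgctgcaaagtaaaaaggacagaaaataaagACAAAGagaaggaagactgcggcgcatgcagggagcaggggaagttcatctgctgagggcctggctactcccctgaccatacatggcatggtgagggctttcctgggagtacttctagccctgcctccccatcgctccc
The Mobp window holds 6 matches and the Opalin window 1. At least 6 were found in 1 of the 32851 windows of the table (0.00304%), which is that of Mobp. The limit of 6 was Mobp's own count, and Mobp was picked for its fold change, so this share is a description and no test. All 6 matches read CTTTGT and lie in a stretch rich in T. The core was present in 16.5% of all windows and in 28% of the 25 windows of the 32 genes, which are 7 windows of 6 genes, Tnr, Tspan2, Mag, Mobp, Cnp and Opalin. The 2 windows of Mag that hold it overlap and share most of their bases. The letters CTGGCAC or GTGCCAG, a core of Myrf binding, were in 4.19% of all windows and 12% of these 25, which are the same 2 overlapping windows of Mag and 1 of Cnp, so 2 of the 22 genes, and not in the 2 windows shown. The windows of Cldn11, Mal and Gpr37 held neither. The motifs were counted on both strands, and a match describes letters only.

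The 41 genes of the white matter score, tested with group alone, gave 0 calls in each of the 3 comparisons, with medians of -0.20 in EAE against naive, 0.13 in treated EAE against EAE and -0.07 in treated EAE against naive. In EAE against naive 13 of them had groups that did not overlap with EAE lower and 4 with EAE higher, against 11.8% and 12.2% of all genes. Nearest to the threshold were Tppp, a tubulin polymerisation protein of oligodendrocytes, with 613 ± 50.6 CPM in naive, 460 ± 37.2 in EAE and 640 ± 44.0 in treated EAE (SD, n = 3; EAE against naive -0.42, SE 0.092, adjusted p = 0.0659), Anxa3 at 0.62 (adjusted p = 0.137) and the transcription factor Zfp488 at 0.61 (adjusted p = 0.211).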

How the data were processed

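The authors deposited raw counts per gene symbol for cortex libraries of poly(A) RNA, in 3 groups of 3. According to the series' design text, fastp trimmed the reads, Hisat2 aligned them, bowtie2 was used for quantification and the authors' own calls came from DESeq2. FastQC 0.11.8 and the build mm10 are named per the submitters' processing notes. Annotation and strand setting: not given in the sources used here. Reads of overlapping genes on either strand therefore cannot be told apart. By GENCODE M21, exons of Mobp, Trf and Pdgfra overlap other genes on the same strand, and exons of 11 of the 32 genes (Cnp, Ermn, Qdpr, Tspan2, Nkx6-2, Olig1, Gpr17, Bcas1, Pdgfra, Lhfpl3 and Tnr) overlap other genes on the opposite strand. Columns were matched to samples by title. Another 9 columns belong to no sample used here and were left out.

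Counts of all 9 libraries (26972179 to 45243553 per library, TMM factors 0.982 to 1.018) were fitted with edgeR 4.0.16 under R 4.3.3 (filterByExpr, TMM, estimateDisp, glmQLFit with robust set, glmQLFTest), with group as the only factor and 6 residual degrees of freedom. Adjusted p-values are Benjamini and Hochberg's over 18644 genes, the standard error is the absolute log2 fold change over the square root of F, and intervals are at 95%. The white matter score is the mean log2 CPM (prior count 2) of 41 oligodendrocyte genes outside the 32, and the model that holds it leaves 5 residual degrees of freedom. Its variants were chosen after the data were seen. CPM at the mean score is CPM moved along the gene's slope, fitted in common to the 3 groups, as a description. CPM per kilobase uses the merged length of all exons of a gene in GENCODE M21.

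The 32 genes and all lists were chosen with earlier results of these data known. Values in every library are given for genes called in any comparison, and in each role class for the gene with the highest mean CPM and for that with the smallest p. Pdgfra was added for its role. Some genes of the other lists are not reported here. Of the further oligodendrocyte, newly forming and precursor lists, genes called with group alone and up to 3 with the smallest p are named, and the lists of other cell types and regions are given by their means only. Gaps between replicates exceeded counting noise in every pair, so no library was taken as a copy of another. Same-numbered libraries deviated together in treated EAE and EAE (correlations 0.17, 0.24 and 0.24), not in every pair with naive (0.05, 0.11 and 0.36 for EAE, and -0.25, -0.12 and 0.20 for treated EAE), so the number was used as a block only as an alternative. Alternatives were DESeq2 1.42.0, other scaling and filters, a fold threshold, the 2 compared groups alone and leaving out each library. On counts simulated for EAE against naive over 18409 genes, the model with group alone recovered 23 of 50 genes changed 1.5-fold and 47 of 50 changed 2-fold. The model with the score recovered 18 and 45 of 50. The changed genes were drawn only from genes with mean counts well above the filter, outside the mature genes and those of the score. These counts therefore do not give the recovery for genes with lower counts or for the mature genes, which was not tested separately. With group alone, the median standard error in that comparison was 0.364 for the mature genes and 0.150 over all genes.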

Additional observations from a re-analysis of the deposited data

How the results depend on the processing

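Of 3408 log2 fold changes under alternatives, over the 32 genes and the named genes of the other lists, 3284 stayed on their side of the threshold, 214 of these with a change of sign but past it in neither fit. A further 85 lost a call, 39 gained one and 0 reversed one. The mean levels of the mature and of the precursor genes in each library moved by less than 1 SD with a prior count of 0.5 or with library size alone.

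In EAE against naive, 1 of the 32 genes and 184 of all genes passed. With the white matter score these were 6 and 462. With the absolute log2 fold change also above 1 they were 0 and 81, and DESeq2 called 1041 of all genes. Leaving out each replicate gave 0 to 1 of the 32 genes and 2 to 261 of all genes, with 2 without naive replicate 1. In treated EAE against EAE, 0 of the 32 genes and 41 of all genes passed. These were 2 and 176 with the score, and 1 and 688 in DESeq2. The fold threshold left 11 of all genes and a fit of the 2 compared groups alone left 3. Leaving out each replicate gave 0 of the 32 genes and 4 to 38 of all genes. In treated EAE against naive, DESeq2 called 3 of all genes where edgeR called 0, also without each replicate. Cspg5 stayed between -0.48 and -0.38 in EAE against naive over 16 alternatives, 10 of them past the threshold.

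In the model with the score, EAE against naive gave 2 of the 32 genes with the list's median in place of its mean, and 11 of them and 1350 of all genes in DESeq2. Leaving out each replicate gave 0 to 3 of the 32 genes and 41 to 425 of all genes. Treated EAE against EAE gave 1 of the 32 genes with the median, 4 and 286 of all genes without a filter, and 8 and 1070 in DESeq2. Leaving out each replicate gave 0 to 1 and 2 to 141. Treated EAE against naive gave 6 of all genes in DESeq2 and 0 to 2 when each replicate was left out. The cause of these differences was not tested.

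With the replicate block and no score, 1, 0 and 0 of the 32 genes and 238, 46 and 0 of all genes passed in EAE against naive, treated EAE against EAE and treated EAE against naive, and Cspg5 was at -0.44 (adjusted p = 0.0255) in the first. With the block and the score, EAE against naive gave 4 of the 32 genes, since Cldn11 (adjusted p = 0.0770) and Mal (adjusted p = 0.0571) lost their calls. Apart from Mobp in treated EAE against EAE with the score, the block changed no other call among the 32 genes in that comparison. With 3 libraries a group, the spread between libraries limited the precision for the mature genes.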
